A study of Capra hircus with 6 samples.

Results

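Osteocrin (OSTN), C-type natriuretic peptide (NPPC) and the natriuretic peptide receptors NPR1, NPR2 and NPR3 were described in goat skin with its hair follicles. These 5 genes, of 26950 in the table, were chosen by name as the small secreted peptides and the receptors they share. OSTN alone was picked for its higher level in white-coated skin, so its difference between the groups is given as a description and without a test. All 5 had enough reads to be among the 15777 genes tested. RNA came from Boer and Macheng Black crossbred goats, animals with a black head and a white body. Skin of black-coated regions gave 3 libraries (black replicates 1 to 3), as did skin of white-coated regions (white replicates 4 to 6), and values are listed in that order. By that description black-coated skin would be of the head and white-coated skin of the body. The labels give neither the body site of a library, nor age, nor the number of animals. Coat colour and body site therefore cannot be told apart, and a p-value reflects nothing beyond how these samples vary, some of which may be technical.

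Natriuretic peptides are secreted and act through receptors in the cell membrane. NPR1 and NPR2 are guanylyl cyclases that make cyclic GMP (cGMP) when a peptide binds: NPR1 answers the heart peptides encoded by NPPA and NPPB, and NPR2 answers C-type natriuretic peptide, best known for driving growth of the long bones. NPR3 lacks the cyclase and takes peptides out of circulation. Osteocrin, also called musclin and known from bone and skeletal muscle, resembles the natriuretic peptides in part of its sequence. It binds NPR3 and so spares the other peptides from clearance.

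Between 12648451 and 22084141 reads per library were assigned to named genes. Black replicate 1 stood apart: the 4 hair shaft and inner root sheath markers found in the table summed to 820.5 CPM (a gene's reads per 1000000 of its library, after TMM scaling) in it and to between 12800 and 17220 in the other libraries. Its 7 macrophage markers summed to 976 CPM, against 124 to 418 elsewhere. Its 6 melanocyte markers summed to 38.1 CPM, against 872 and 1012 CPM in black replicates 2 and 3. In the white libraries the melanocyte markers summed to between 4.32 and 6.25 CPM. The part of pigment cells in the results below was not tested. LOC108634721, whose row is described as a Y-linked-like translation initiation factor subunit, had 1, 688 and 0 reads in the black libraries. It had 934, 801 and 767 reads in the white libraries. Black replicates 1 and 3 thus differed in this gene from black replicate 2 and from every white library. The gene was therefore unbalanced between the groups as well as within the black one. The part of sex in the results below was not tested. Over all genes, 0 of 15777 passed edgeR's quasi-likelihood test at an adjusted p of 0.05 (0% called), 536 had an unadjusted p under 0.05, and DESeq2 called 78 (0.222% of its genes as higher in white-coated and 0.273% as higher in black-coated skin).

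OSTN was close to the limit of detection in black-coated skin and present in every white library. It had 2, 5 and 6 reads in the black libraries, or 0.142, 0.358 and 0.260 CPM. In white replicates 4, 5 and 6 it had 20, 87 and 121 reads, or 1.14, 5.11 and 8.56 CPM. The lowest white library was 3.17-fold above the highest black one, so the groups did not overlap, as was the case in this direction for 4.99% of all genes tested. The white libraries differed among themselves by 7.53-fold, with white replicate 4 well below the other two, while the black libraries differed by 2.53-fold on a handful of reads each.

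The mean OSTN level was 0.253 ± 0.108 CPM (SD, n = 3) in black-coated and 4.94 ± 3.72 CPM (SD, n = 3) in white-coated skin, a ratio of 19.5. The fitted log2 fold change of black over white was -4.24 (SE 0.84). Only 1 of the genes tested had a lower one, but OSTN was chosen for this difference, so its position is no test. Summed over the groups there were 13 reads against 228. Without black replicate 1 the log2 fold change was -3.99, and without white replicate 4 it was -4.71.

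**Figure D1:**
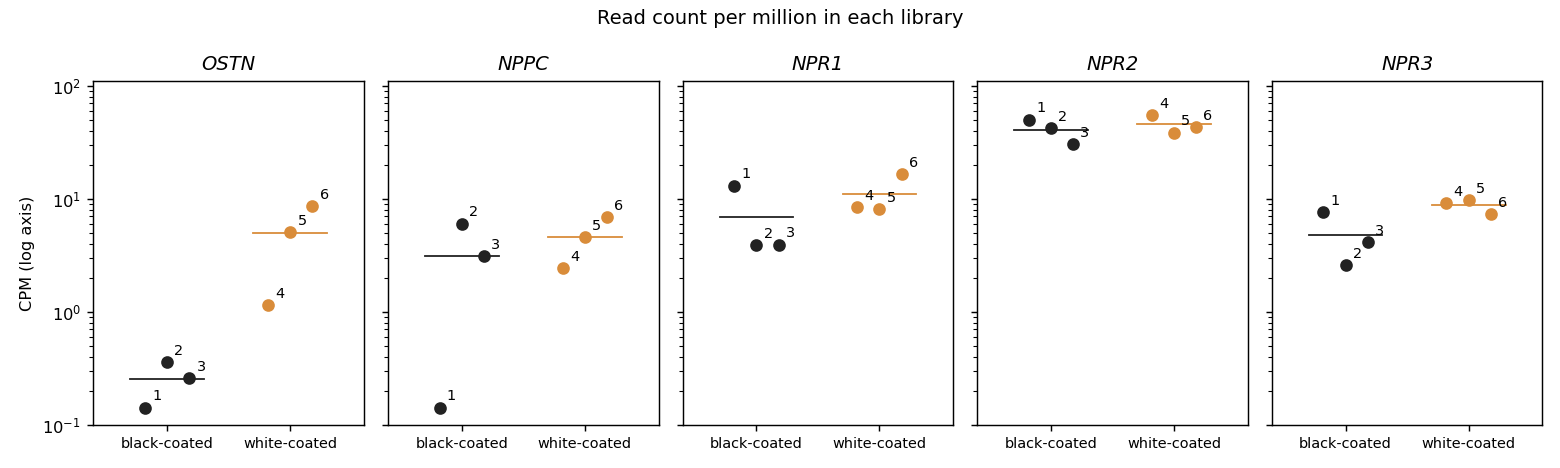
CPM of the 5 genes on a log axis, 1 panel per gene, with a numbered point for each library and a line at the group mean (n = 3 per group). OSTN is the gene whose white points (1.14 to 8.56 CPM) all lie above its black points (0.142 to 0.358 CPM), and NPPC in black replicate 1 lies far below its other libraries.

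NPPC, the other ligand, showed no such separation. It had 2, 84 and 72 reads in the black libraries and 43, 78 and 97 in the white libraries. In CPM these were 0.142, 6.02 and 3.11 against 2.45, 4.58 and 6.87. The groups overlapped, and black replicate 1 was the only library near 0, 42.5-fold below black replicate 2. The log2 fold change was -0.58 (SE 0.98, edgeR adjusted p = 1), and it was -0.025 (SE 0.50) without black replicate 1, -1.46 (SE 1.09) without black replicate 2 and -0.18 without white replicate 6. The low NPPC library was the one with few hair shaft and inner root sheath reads, whose part in the result was not tested. In bulk skin, fewer cells of a type and less RNA per cell cannot be told apart. Of the heart peptides, NPPA had 0 reads in all 6 libraries, which allows a level of up to 0.130 to 0.215 CPM at 3 counts per library, and NPPB had 1 read in black replicate 3, 1 in white replicate 4, 4 in white replicate 5 and 0 elsewhere.

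NPR2, the receptor of C-type natriuretic peptide, was the steadiest of the 5. It stood at 50.2, 42.1 and 30.4 CPM in the black libraries and at 55.4, 38.6 and 43.2 CPM in the white libraries. The ranges overlapped in part, between 38.6 and 50.2 CPM. The log2 fold change was -0.16 (SE 0.24, edgeR adjusted p = 1), and its direction turned without black replicate 3 (0.015, adjusted p = 0.997).

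NPR1, the receptor of the heart peptides, split the black libraries. It stood at 13.04, 3.87 and 3.94 CPM in the black libraries and at 8.41, 8.04 and 16.6 CPM in the white libraries. Black replicates 2 and 3 lay below all white libraries, and black replicate 1 lay inside the white range. The log2 fold change was -0.67 (SE 0.57, edgeR adjusted p = 1). Without black replicate 1 it was -1.49 (SE 0.39) with an unadjusted p of 0.00585 and an adjusted p of 0.348 in edgeR, so it did not pass. Without white replicate 6 it was -0.25, and without black replicates 2 or 3 it was -0.39 or -0.38.

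NPR3, the clearance receptor that osteocrin binds, had the same arrangement of libraries. It stood at 7.58, 2.58 and 4.11 CPM in the black libraries and at 9.21, 9.68 and 7.29 CPM in the white libraries. Black replicate 1 was just above white replicate 6, the only overlap between the groups. The means were 4.76 ± 2.56 and 8.73 ± 1.27 CPM (SD, n = 3 each), with a log2 fold change of -0.88 (SE 0.43, unadjusted p = 0.0774, edgeR adjusted p = 1). Without black replicate 1 it was -1.37 (SE 0.33, unadjusted p = 0.00362, edgeR adjusted p = 0.310), and without black replicate 2 it was -0.59. In those 5 libraries the white range of NPR1 and of NPR3 lay above the black range, as it did for 14.5% of the 16021 genes tested there, and 5.28% of them had an unadjusted p under 0.05 and a higher level in white-coated skin.

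Black replicate 1, the library highest among the black ones for NPR1, NPR2 and NPR3, also held the most reads of several other cell types. Its 8 smooth muscle and pericyte markers summed to 3655 CPM, against 1615 to 2414 in the other libraries. Its 9 endothelial markers summed to 1222 CPM, against 637 to 886, and its 6 adipocyte markers to 177 CPM, against 48.1 to 125, with LEP at 0 throughout. The part of these cells in the receptor levels was not tested.

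Per transcript length, NPR2 was the most abundant of the 5 genes in all 6 libraries. Levels of different genes were set side by side in FPKM, fragments scaled to transcript length and library size, summed over the transcripts of a gene. In white-coated skin the means were 9.36 ± 2.15 FPKM for NPR2, 3.56 ± 1.32 for NPPC, 3.24 ± 2.40 for OSTN, 1.77 ± 0.649 for NPR1 and 1.58 ± 0.270 for NPR3 (SD, n = 3). NPR2 stood clear of the rest. OSTN differed from NPPC, NPR1 and NPR3 alike by less than its own spread, and NPR1 differed from NPR3 by less than theirs. In black-coated skin they were 8.60 ± 2.70 FPKM for NPR2, 2.06 ± 2.01 for NPPC, 1.21 ± 1.05 for NPR1, 0.872 ± 0.568 for NPR3 and 0.175 ± 0.0725 for OSTN. There the order of NPPC, NPR1 and NPR3 was within their spread. OSTN was last or next to last of the 5 in each black library and in white replicate 4 it was last, but it ranked 3 of 5 in white replicate 5 and 2 of 5 in white replicate 6.

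The balance of ligand and clearance receptor ranged widely. OSTN over NPR3, in summed FPKM, was 0.0681, 0.648 and 0.236 in the black libraries and 0.455, 1.93 and 4.42 in the white libraries. White replicate 4 fell between black replicates 3 and 2 on this ratio, so the groups overlapped. NPPC over NPR3 was 0.0517, 10.8 and 2.69 in the black libraries against 1.28, 2.82 and 2.82 in the white ones, with both extremes in black-coated skin.

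**Figure D2:**
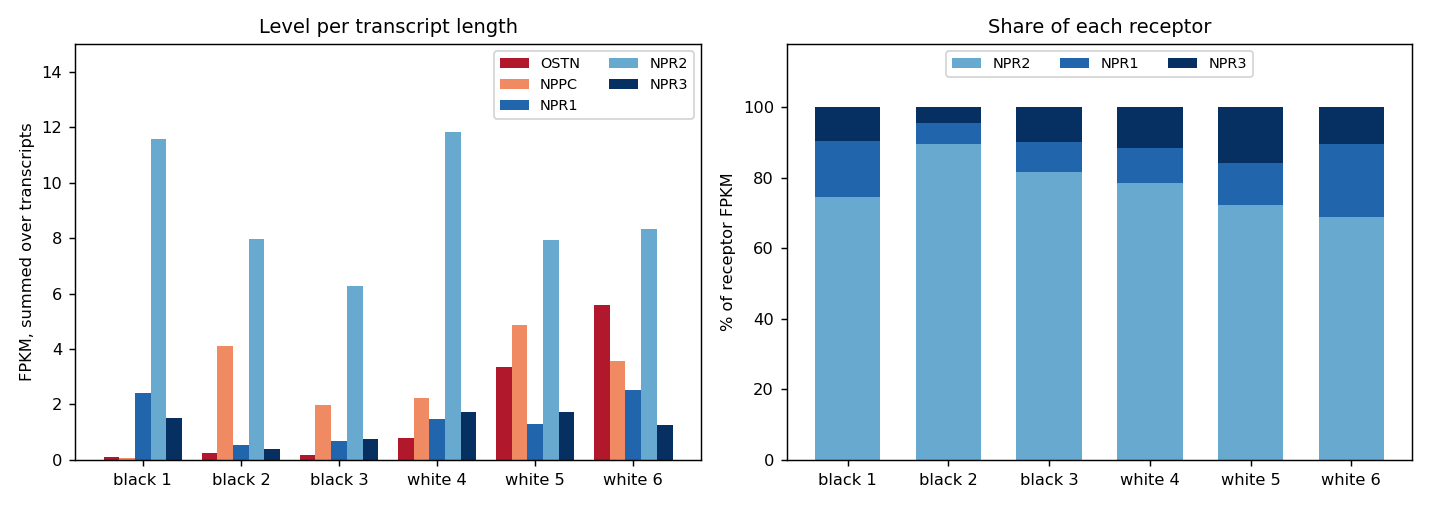
Left, FPKM summed over transcripts for the 5 genes in each library; right, the percent of the summed FPKM of NPR1, NPR2 and NPR3 that each receptor held in each library. NPR2 is the tallest bar in every library and holds 68.8% to 89.6% of receptor FPKM, and OSTN exceeds the other ligand only in white replicate 6 and black replicate 1.

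NPR3 took a somewhat smaller share of receptor FPKM in black-coated skin, by a margin that the test did not separate from the spread. On the transcript row with most reads for each gene, the share was 17.6%, 7.87% and 17.2% in the black libraries and 17.8%, 22.5% and 15.7% in the white libraries. The groups overlapped. The means differed by -4.45 percentage points (two-sided exact permutation test, p = 0.4, where 3 against 3 cannot go below 0.1). Without each library in turn the difference ran from -6.12 points, without black replicate 1, to -1.28 points, without black replicate 2, and it was -2.55 points without white replicate 5. NPR2 and NPR3 each have 2 transcript rows between which FPKM was divided. In every library the NPR2 row left out held more FPKM than the row used, and the NPR3 row left out held less. In black replicate 1 these NPR2 rows held 6.96 and 4.60 FPKM. The single-row shares of NPR3 are thus higher than those over all rows. With the rows summed, a setting chosen after seeing the data, the shares were 9.66%, 4.28% and 9.67% against 11.5%, 15.8% and 10.5%. They then no longer overlapped and gave the smallest p the test allows (two-sided exact permutation test, p = 0.1). The groups were also separate with CPM in place of FPKM and with the row of fewest reads. The differences were -4.66 and -3.24 points (exact permutation p = 0.1 each). Both separations were narrow: the highest black and lowest white shares were 10.7% and 10.9% with CPM. With the row of fewest reads they were 0.854% and 0.893%, and black replicate 1 had an NPR3 FPKM of 1.29e-06 there.

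The wider natriuretic peptide and cGMP pathway was taken from a list of 62 genes, of which 60 were in the table and 51 were tested. Apart from the 5 genes above, 46 were tested, 0 passed edgeR's test over all genes, and the median log2 fold change was 0.12 against 0.02 for all genes tested. At an unadjusted p under 0.05, 4 were higher in white-coated skin and 2 higher in black-coated skin, where the shares over all genes were 1.75% and 1.65%. Without each library in turn these counts ran from 1 to 5 and from 1 to 4, where the shares over all genes ran from 1.01% to 5.28% and from 0.771% to 4.79%. Without black replicate 1 the median of the 46 genes was -0.17. Its direction turned in that setting, and it ran from 0.054 to 0.18 when each of the other libraries was left out.

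Of the enzymes that cut these peptides, the processing protease CORIN and the degrading protease MME were higher in each white library than in any black one. This held for 5 of the 46 genes, and for 4.99% of all genes tested. CORIN, which activates the atrial peptide and in mice is made by the dermal papilla, where it modifies agouti pigment signalling, stood at 1.49, 5.30 and 2.60 CPM in the black libraries. In white replicates 4 to 6 it stood at 7.56, 7.04 and 7.86 CPM (log2 fold change -1.26, SE 0.48, unadjusted p = 0.0324, edgeR adjusted p = 1, and -1.86 without black replicate 2). The 12 dermal papilla markers, CORIN among them, summed to 257, 683 and 360 CPM in the black libraries and to 339, 397 and 370 CPM in the white ones, so as a list they overlapped. Most of the sum was VCAN, CRABP1 and LEF1, at 308.5, 160.2 and 111.5 CPM in black replicate 2, so it says little of the other markers. Of the 12 markers, 7 had a lower black than white mean. Over all genes tested, 7413 of 15777 had a log2 fold change below 0. The part of dermal papilla cells in the CORIN level was not tested.

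MME, or neprilysin, breaks down natriuretic peptides outside the cell. It stood at 6.66, 2.01 and 2.64 CPM in the black libraries and at 9.21, 9.33 and 9.48 CPM in the white libraries. The white libraries were nearly equal and all above the black ones (log2 fold change -1.31, SE 0.47, unadjusted p = 0.0272, edgeR adjusted p = 1, and -1.99 without black replicate 1). FURIN, which cuts the C-type precursor, had a log2 fold change of 0.19 (SE 0.20), with overlapping groups.

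Downstream of the receptors, the groups overlapped for most genes, though 3 libraries per group cannot show that levels were equal. PRKG1, the soluble cGMP-dependent kinase of smooth muscle, had a log2 fold change of 0.11 (SE 0.36). The phosphodiesterase genes encode enzymes that break down cGMP or cAMP and the small subunit PDE6D. Of the 9 tested, 9 had log2 fold changes above 0, from 0.12 to 0.75, and 0 an unadjusted p under 0.05. Over all genes tested, 8364 of 15777 had a log2 fold change above 0. Only 3 of the 9 phosphodiesterase genes were above 0 without black replicate 1, and 8 on log2(FPKM + 1). For PDE5A, which is specific for cGMP, the log2 fold change was 0.71 (SE 0.34), and 0.32 (SE 0.25) without black replicate 1. The subunits of the nitric oxide receptor, listed under the older symbols GUCY1A3 and GUCY1B3, had log2 fold changes of 0.31 (SE 0.41) and 0.33 (SE 0.43). Their levels were highest in black replicate 1, at 37.3 and 30.7 CPM against at most 20.95 and 17.7 CPM elsewhere.

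PRKG2, the membrane-bound cGMP kinase that acts after NPR2 in growing bone, stood at 1.56, 1.29 and 6.45 CPM in the black libraries. In white replicates 4 to 6 it stood at 0.739, 0.821 and 0.566 CPM. The groups did not overlap, as in this direction for 3.81% of all genes tested, and black replicate 3 lay far above the other 5 libraries (log2 fold change 2.13, SE 0.72, unadjusted p = 0.0206, edgeR adjusted p = 1). Without black replicate 3 the log2 fold change was 0.995 (SE 0.51, unadjusted p = 0.0989 in edgeR). ABCC11, a cyclic nucleotide exporter that in humans also works in apocrine sweat glands, stood at 189, 25.6 and 42.9 CPM against 10.97, 8.63 and 5.45 CPM. Its log2 fold change was 3.36 (SE 0.79, edgeR adjusted p = 1), and 2.03 without black replicate 1. DESeq2 called ABCC11 over all genes (adjusted p = 7.38e-04).

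The cGMP-gated channel subunit CNGA3 had 21.9 CPM in black replicate 1 and 2.15 to 3.75 CPM elsewhere. Its log2 fold change of 1.66 (SE 0.93) became -0.27 without that library. NOS2, the inducible nitric oxide synthase, was higher in each white library, at 3.01, 4.52 and 5.38 CPM against 1.42, 2.22 and 1.73 (log2 fold change -1.26, SE 0.39, unadjusted p = 0.0143, edgeR adjusted p = 1). The endothelial enzyme NOS3 had a log2 fold change of 0.38 (SE 0.35). STC2, a secreted stanniocalcin listed with the skeletal growth genes, stood at 31.3, 22.5 and 7.01 CPM in the black libraries against 77.8, 62.7 and 31.8 CPM in the white ones (log2 fold change -1.51, SE 0.57, unadjusted p = 0.0324, edgeR adjusted p = 1).

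**Figure D3:**
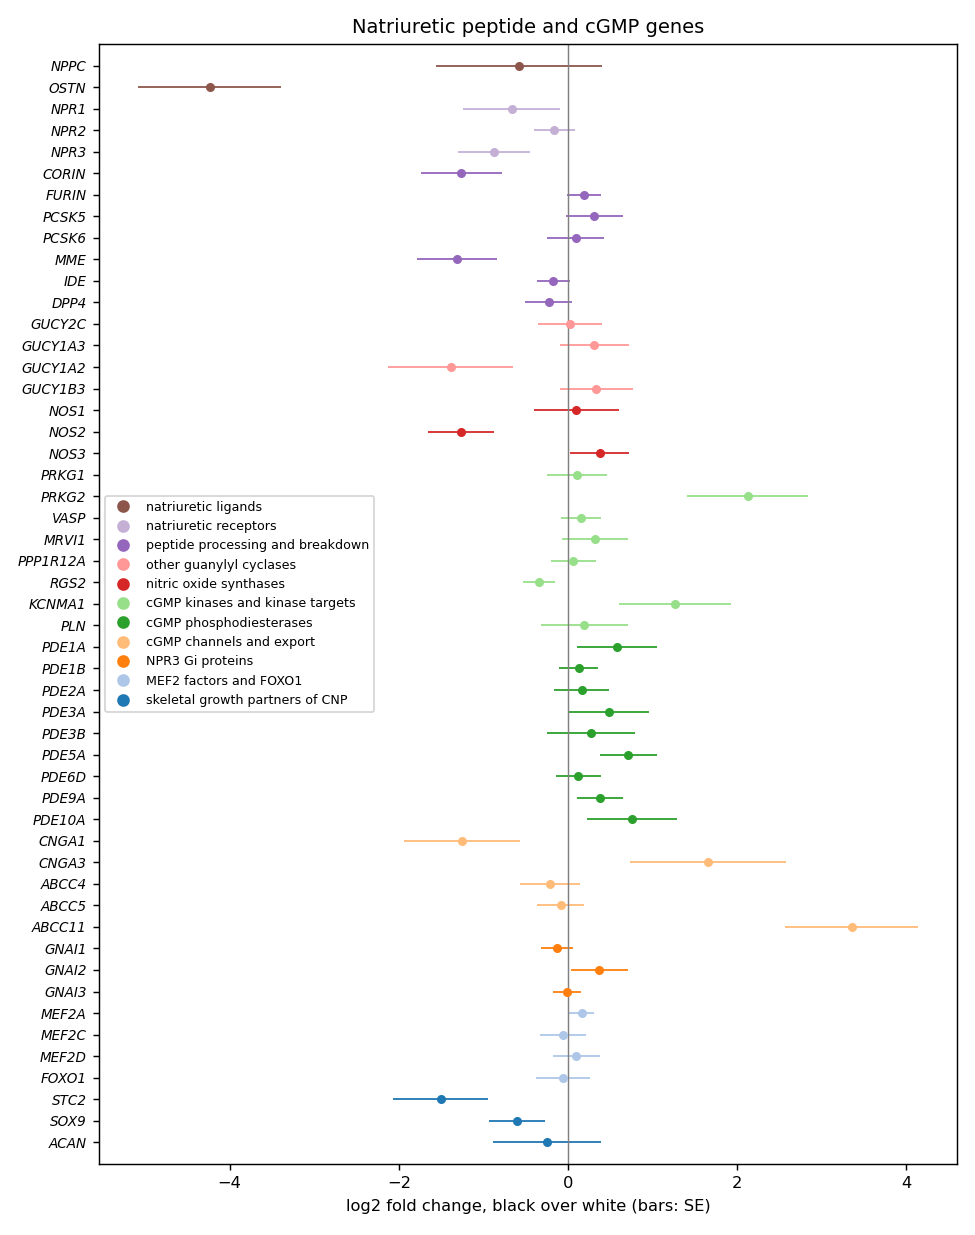
Fitted log2 fold change of black- over white-coated skin, with bars of 1 SE, for the 51 tested genes of the natriuretic peptide and cGMP lists, coloured by list. OSTN lies farthest to the left at -4.24 and was chosen for that difference; ABCC11 lies farthest to the right at 3.36, and the phosphodiesterases lie between 0.12 and 0.75.

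Since OSTN is known from bone and muscle, markers of those tissues were read beside it. Of 17 skeletal muscle markers in the table, MYOD1, MYOG, PAX7, MYL1 and MYL2 had 0 reads in all libraries, and ACTA1 and CKM stood at no more than 1.76 CPM in any. Others were present: NEB stood at 14.9 to 42.6 CPM, TNNT3 at 1.65 to 6.17 CPM, and TNNI2 and CASQ1 reached 2.55 and 2.34 CPM. The summed muscle list was 318, 116 and 171 CPM in the black libraries against 382, 204 and 205 in the white ones, most of it DES, which smooth muscle also makes. Without DES it was 56.2, 24.7 and 32.7 CPM against 27.0, 34.3 and 30.9 CPM, highest in black replicate 1 and with overlapping groups.

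Of 11 bone markers MEPE was at 0, and IBSP was at 0 in every library but white replicate 4 with 0.114 CPM. The osteoblast factor SP7 stood at 0.921, 0.788 and 0.995 CPM in the black libraries against 0.910, 2.52 and 2.12 CPM in the white ones, with overlapping groups. The bone list summed to 66.0, 151 and 75.7 CPM against 188, 105 and 99.4 CPM, and without SPP1, which other cells also make, to 30.1, 21.0 and 24.1 CPM against 34.1, 25.7 and 22.6 CPM. The part of muscle or bone cells in the OSTN level was not tested.

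MEF2 factors, which act on the OSTN gene in primate neurons, and FOXO1, which does so in mouse muscle cells, were present throughout. MEF2A, MEF2C, MEF2D and FOXO1 had log2 fold changes of 0.16, -0.06, 0.10 and -0.06, with SE of 0.15, 0.27, 0.28 and 0.32. Each black library lay above each white one for MEF2A, as for 3.81% of all genes tested, and the groups overlapped for the others. The nearest tested named genes on either side of OSTN in the ARS1.2 gene order were CCDC50 and IL1RAP. Their log2 fold changes were -0.17 (SE 0.27) and -0.04 (SE 0.26), and their groups overlapped. Beside NPPC, DIS3L2 and COPS7B had -0.19 (SE 0.17) and -0.14 (SE 0.20). Beside NPR3, TARS had 0.42 (SE 0.18), opposite in sign to NPR3, and SUB1 had -0.29 (SE 0.16). The groups did not overlap for TARS, higher in black, or for SUB1, higher in white. The shares of all genes tested were 3.81% and 4.99% in these directions.

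The pattern of OSTN over the 6 libraries was nearest to that of PRND, the prion-like protein doppel. Likeness was measured as the root mean square difference between log2 CPM profiles centred on their mean, over 12874 named genes with a mean of at least 1 CPM. It was 0.69 log2 units for PRND, which stood at 1.28, 2.01 and 0.995 CPM in the black libraries and at 5.34, 9.92 and 15.8 CPM in the white libraries. CRNN, the epidermal protein cornulin, followed at 1.07, then MPPED1 at 1.11, ASIP, the agouti protein, at 1.14 and GHRHR, the receptor of growth hormone-releasing hormone, at 1.15. ASIP was also lowest among the white libraries in white replicate 4, at 1.02 CPM against 52.0 and 56.8 CPM. The 8 cornifying epidermis markers in the table all had a lower black than white mean. Over all genes tested, 7413 of 15777 had a log2 fold change below 0. The epidermis markers summed to 433, 1070 and 1637 CPM in the black libraries against 3242, 2446 and 1607 CPM in the white ones. Within that list the loricrin gene LOR stood at 2.29 to 3.54 CPM in the black libraries, below each white library. KRT10, ASPRV1 and KPRP were likewise higher in each white library than in any black one. This direction of separation held for 4.99% of all genes tested. The groups overlapped for KRT1, IVL, CDSN and DSG1. The sums overlapped, and the part of epidermal cells in the levels of OSTN and CRNN was not tested. The 5 nearest genes were selected for resembling OSTN, so their separation of the groups adds no support to it.

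**Figure D4:**
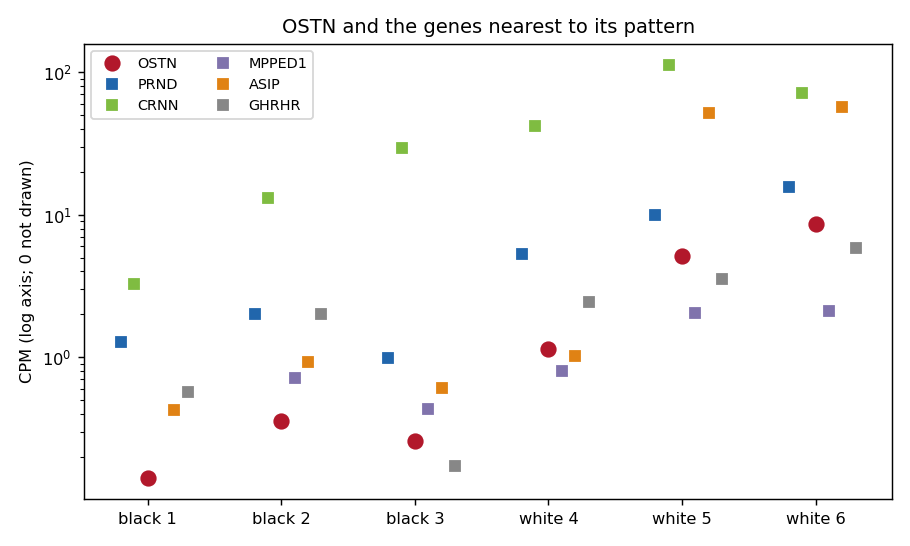
CPM on a log axis in each library for OSTN (large points) and the 5 named genes with the nearest pattern, shifted sideways for legibility. OSTN goes from 0.142 to 0.358 CPM in the black libraries to between 1.14 and 8.56 CPM in the white ones, and ASIP stays near 1 CPM in white replicate 4.

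The other members had different neighbours. NPPC was nearest to SRMS, an epithelial tyrosine kinase (0.28 log2 units), IL1F10, an interleukin 1 family member (0.30), and KRT32, a hair keratin (0.31), each with its lowest level in black replicate 1. KRT32 stood at 18.1 CPM there and at 228 to 556 CPM elsewhere. NPR1 was nearest to STAC, PLCL1 and HOXA5 (0.18 to 0.26), NPR2 to TCEA2, ACAT1 and ZNF575 (0.056 to 0.075), and NPR3 to MYH7B, GPRIN2 and NEIL1 (0.15 to 0.18). Among the 5 genes themselves the closest pair was NPR1 and NPR3 at 0.53 log2 units, with 2.03% of the named genes closer to NPR1 than NPR3 was. NPR3 differed from OSTN by 1.79, and 4.69% of the named genes were closer to OSTN than NPR3 was. This was not particular to NPR3: NPPC differed from OSTN by 1.69 (1.96% closer) and NPR1 by 1.79 (4.90% closer). NPR2 differed from it by 2.05 (49.1% closer).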

How the data were processed

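Total RNA of goat skin was depleted of ribosomal RNA and sequenced, per the labels' protocols. The deposited table gives, per the file headers, read counts and FPKM for each transcript; FPKM was computed by the authors. Bowtie2 2.0.6, HISAT2 and Cufflinks are named in the submitters' processing notes without their roles. For the counting program, genome build, annotation and strand setting the entry is the same: not given in the sources used here. Reads of overlapping genes therefore cannot be told apart. Of 53266 rows, 189 without a gene name (at most 0.0675% of a library's reads) and 1776 of transfer RNA (at most 0.0126%) were left out. Transcripts of a gene mostly carried the same reads, so each gene was represented by its row with most reads. For NPPC, NPR2 and NPR3 the second row held 74.7%, 97.2% and 78.3% of the reads of the first.

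The deposited counts went into edgeR 4.0.16 under R 4.3.3 (filterByExpr, TMM scaling with factors from 0.872 to 1.12, glmQLFTest with robust fitting, black over white, Benjamini-Hochberg adjustment over all genes kept). The test was checked on simulated counts. Alternatives used other scalings and filters, DESeq2 1.42.0, limma 3.58.1, FPKM, the median transcript row, and each library left out in turn. Named genes were the 5 members, fixed pathway genes (1 of them not analysed here), the 3 largest changes per direction in the pathway lists, the nearest patterns and the neighbouring genes; gene order came from the ARS1.2 table, matched by transcript. Members and lists were chosen with earlier results of these data known.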

Additional observations from a re-analysis of the deposited data

How the results depend on the processing

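No paired analysis was made, since the labels do not say which samples share an animal. The black libraries are numbered 1 to 3 and the white ones 4 to 6, which alone does not settle it. LOC108634721 had 1 and 0 reads in black replicates 1 and 3 and 767 to 934 reads in the white libraries. The genes called over all genes, 0 in edgeR with TMM scaling, numbered 78 in DESeq2 (43 with the higher level in black, 35 in white), 1 by limma-trend on log2(FPKM + 0.1) (1 higher in black-coated skin), and 0 to 16 without each library in turn (0 to 14 with the higher level in black, 0 to 4 in white). Of the pathway lists without the 5 members, 1 gene, ABCC11, was called by DESeq2 and 0 in the other settings. OSTN was chosen for its higher level in white-coated skin in these same libraries, so its direction in the alternatives is no test. Its log2 fold change was below 0 in all 16 alternatives and ran from -4.71 to -3.59 without each library. It was -1.66 on log2(FPKM + 1), where the added 1 exceeds the black levels. NPPC, NPR1 and NPR3 were below 0 and passed in none of the 16 alternatives. NPR2 ran from -0.34 to 0.015 without each library and turned to 0.015 without black replicate 3. Reads in the black libraries limit OSTN: 2 to 6 each.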
